A study of Homo sapiens with 9 samples.

Results

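The respiratory chain genes described here are 55 genes that encode subunits of the oxidative phosphorylation complexes, 13 in the mitochondrial genome and 42 in the nucleus. They were taken by name from a fixed list, the mitochondrial ones being those whose symbol starts with MT- and that encode protein, and were matched to the 60676 genes of the count table by Ensembl identifier. All 55 were in the table, and all 55 passed the filter on low counts that left 15500 genes for testing. RNA was measured by sequencing in A549, an established human lung adenocarcinoma line bought from a cell repository. The cells carried 1 of 3 lentiviral hairpin constructs. The control group carried shNT, a hairpin with no intended target, and the other groups carried shLITATS1-1 or shLITATS1-2, each directed against LITATS1, a long noncoding RNA. In all groups the cells were transduced overnight, kept for 2 days, put under 1 ng/mL puromycin and harvested after another 3 days, so that the controls shared the virus and the drug. Each group held 3 libraries, which the series calls biological replicates. Whether they came from separate transductions is not said, so a p-value here speaks of the spread among the libraries, which may be partly technical.

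The respiratory chain passes electrons from NADH and succinate to oxygen through complexes I to IV of the inner mitochondrial membrane, and the proton gradient that complexes I, III and IV build drives ATP synthase, also called complex V. Mitochondrial DNA encodes the hydrophobic core subunits of complexes I, III, IV and V, while all subunits of complex II and most of the others are nuclear and are imported. The mitochondrial genes are transcribed as long precursors from both strands, processed and polyadenylated, so the level of each messenger reflects both its synthesis and its stability. A549 cells, like many tumour lines, respire as well as ferment glucose.

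LITATS1 stood at 14.02, 14.5 and 16.8 CPM (counts scaled to a common library size) in the shNT libraries, at 3.78, 3.21 and 3.00 with shLITATS1-1 and at 3.33, 3.03 and 2.69 with shLITATS1-2, so the target was lower in each of the 6 hairpin libraries. CPM here are fragments of a gene relative to all gene fragments of its library after TMM scaling, edgeR's correction for differences in library composition. The libraries held 19610514 to 19989652 gene fragments. The share of unaligned fragments was 3.79% on average in the controls, 5.56% for shLITATS1-1 and 5.43% for shLITATS1-2. The 7 markers listed for A549 or epithelial cells were EPCAM, KRT8, KRT18, KRT19, CDH1, CDH2 and NQO1. Their summed level ranged over 6438 to 6662 CPM with shNT, 9119 to 9279 with shLITATS1-1 and 5053 to 5341 with shLITATS1-2. All 7 were detected in each group. The sums cover moves in both directions, from -0.54 to 1.19 on the log2 scale with shLITATS1-1 and -0.85 to 1.00 with shLITATS1-2. Markers of other cell types were low but differed between the groups. The 6 fibroblast markers summed to 2.91 to 3.54 CPM with shNT, 5.42 to 5.83 with shLITATS1-1 and 2.03 to 2.40 with shLITATS1-2, and the 4 immune markers to 1.23 to 1.64, 1.89 to 3.05 and 5.04 to 6.08. Nearly all of the immune sum was CD14, which was called higher with both hairpins (0.83 and 1.93 on the log2 scale), while PTPRC, CD68 and LYZ had at most 1 count in any library. In all shNT libraries COL1A2, DCN, PTPRC and LYZ were at 0. The part of alignment and marker differences in the results below was not tested. In these bulk libraries, fewer cells that express a gene and less of its RNA per cell cannot be told apart.

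Mitochondrially encoded messengers were lower with both hairpins, and lower with shLITATS1-2 than with shLITATS1-1 for most of them. With shLITATS1-2 all 13 were called lower, at 59.1% to 74.2% of the shNT level. With shLITATS1-1, 9 were called lower, MT-ND6 and MT-CO1 were called higher, and MT-ND4 and MT-CO2 passed no test. A gene was called where edgeR's quasi-likelihood test gave a Benjamini-Hochberg adjusted p under 0.05 over all 15500 genes. Many genes of all kinds passed that test: 61.0% of tested genes were called with shLITATS1-1 (30.5% higher and 30.5% lower) and 56.7% with shLITATS1-2 (27.8% higher and 28.9% lower). The median log2 fold change of the 13 messengers was -0.24 with shLITATS1-1 and -0.65 with shLITATS1-2, while that of all tested genes was -0.0070 and -0.0040. Both comparisons used the same 3 control libraries and are not independent of each other. Without scaling beyond library size, the medians of the 13 were -0.26 and -0.53, both still below 0, with 9 and 11 called lower.

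The 7 mitochondrial genes of complex I encode its membrane arm, which pumps protons. MT-ND1 (ENSG00000198888, chrM:3307-4262 in GRCh38), at the junction with the matrix arm, stood at 6910.4, 6472 and 6742 CPM with shNT, 5469.8, 5465 and 5350.4 with shLITATS1-1 and 3810.3, 4134 and 4232 with shLITATS1-2. The 3 groups did not overlap, and they fell in the order shNT, shLITATS1-1, shLITATS1-2. Its log2 fold change was -0.31 ± 0.029 (SE; adjusted p = 4.65e-14) with shLITATS1-1 and -0.72 ± 0.029 (SE; adjusted p = 7.62e-31) with shLITATS1-2. MT-ND5 (ENSG00000198786, chrM:12337-14148), the most distal pump subunit, had the same order without overlap, with 4615, 4325 and 4167 CPM with shNT, 3563, 3765 and 3713 with shLITATS1-1 and 2449, 2687 and 2782 with shLITATS1-2. These levels were 84.2% ± 2.40 and 60.4% ± 3.92 of the shNT mean (SD, n = 3), and both changes were called (adjusted p = 7.09e-05 and 7.3e-11).

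MT-ND2 (ENSG00000198763, chrM:4470-5511), an antiporter-like pump subunit, was lowered to a similar extent in both hairpin groups. It stood at 6605, 6549 and 6405 CPM with shNT, 4395, 4719 and 4591 with shLITATS1-1 and 4205, 4720.0 and 4595 with shLITATS1-2. The hairpin groups overlapped each other and lay below shNT, with log2 fold changes of -0.51 ± 0.031 (SE; adjusted p = 2.72e-19) and -0.53 ± 0.031 (SE; adjusted p = 8.48e-20). MT-ND3 (ENSG00000198840, chrM:10059-10404), a small subunit with a loop near the quinone site, showed the widest spread of the mitochondrial genes above 100 counts. Its levels were 1189, 1187 and 1305 CPM with shNT, 628, 925 and 900.4 with shLITATS1-1 and 791, 955 and 803 with shLITATS1-2, so the first shLITATS1-1 library stood below its fellows. The log2 fold changes of MT-ND3 were -0.59 ± 0.16 (SE; adjusted p = 0.0184) and -0.53 ± 0.16 (SE; adjusted p = 0.0289). The first call was lost without shNT replicate 3 (-0.54, adjusted p = 0.0568), and the second without any 1 of the shNT libraries or shLITATS1-2 replicates 1 or 3 (-0.48 to -0.56, adjusted p = 0.0598 to 0.0884), without TMM (-0.42, adjusted p = 0.0641) or without a filter (-0.53, adjusted p = 0.0636).

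MT-ND4, MT-ND4L and MT-ND6 separated the hairpins. MT-ND4 (ENSG00000198886, chrM:10760-12137), another antiporter-like subunit, stood at 10802, 10943 and 10671 CPM with shNT, 11102, 11479.9 and 11124 with shLITATS1-1 and 6587, 6861 and 7259 with shLITATS1-2. The shLITATS1-1 libraries were slightly above shNT without a call (0.056 ± 0.028 (SE; adjusted p = 0.0747)), and the shLITATS1-2 libraries far below it (-0.65 ± 0.028 (SE; adjusted p = 1.21e-31)). The former passed the threshold with DESeq2's size factors (0.063, adjusted p = 0.0445), with a stricter filter (0.067, adjusted p = 0.0363) and with a gene length correction (0.11, adjusted p = 0.000447). MT-ND4L (ENSG00000212907, chrM:10470-10766), which shares a transcript and 7 bases with MT-ND4, stood at 586, 508 and 546 CPM with shNT, 489, 491 and 519 with shLITATS1-1 and 309.9, 320.5 and 339 with shLITATS1-2. With shLITATS1-1 it overlapped shNT and its small call (-0.13 ± 0.041 (SE; adjusted p = 0.0097)) was lost without shNT replicate 1 (-0.071, adjusted p = 0.0631), with DESeq2 (adjusted p = 0.0859) and with a gene length correction (adjusted p = 0.249), whereas with shLITATS1-2 it fell by 0.76 on the log2 scale (adjusted p = 1.69e-13). MT-ND6 (ENSG00000198695, chrM:14149-14673) is the only protein gene on the other strand of mitochondrial DNA. It stood at 737, 650.0 and 664 CPM with shNT, 767, 803 and 753 with shLITATS1-1 and 396, 418 and 398 with shLITATS1-2. All shLITATS1-1 libraries lay above and all shLITATS1-2 libraries below the shNT range, with log2 fold changes of 0.18 ± 0.034 (SE; adjusted p = 2.31e-05) and -0.76 ± 0.035 (SE; adjusted p = 4.92e-21).

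MT-CYB (ENSG00000198727, chrM:14747-15887) encodes cytochrome b, the mitochondrial subunit of complex III that carries both quinone sites. Its levels were 5246, 5341 and 5169 CPM with shNT, 4659.9, 4729 and 4372 with shLITATS1-1 and 3861, 3685 and 4151 with shLITATS1-2. The groups did not overlap, and MT-CYB was lower with both hairpins, at -0.20 ± 0.032 (SE; adjusted p = 1.13e-06) and -0.43 ± 0.032 (SE; adjusted p = 2.3e-15) on the log2 scale. The latter was the smallest decrease among the 13 messengers with shLITATS1-2.

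Complex IV, cytochrome c oxidase, has 3 mitochondrial subunits, of which MT-CO1 holds the haem a and copper centre where oxygen is reduced, MT-CO2 accepts electrons from cytochrome c and MT-CO3 stabilises the core. MT-CO1 (ENSG00000198804, chrM:5904-7445) stood at 23067, 22791 and 22011 CPM with shNT, 23071, 23971 and 24038 with shLITATS1-1 and 14829.6, 14712 and 16199 with shLITATS1-2. The shLITATS1-1 libraries lay just above the shNT range and were called higher by a narrow margin (0.067 ± 0.029 (SE; adjusted p = 0.0407)), and with shLITATS1-2 it was lower in each library (-0.57 ± 0.029 (SE; adjusted p = 3.45e-26)). The rise was lost without shNT replicate 2 or 3 or shLITATS1-1 replicate 2 or 3 (0.046 to 0.070, adjusted p = 0.0613 to 0.200), which leaves MT-ND6 as the 1 gene called higher with shLITATS1-1. It was also lost with DESeq2, without TMM, without a filter, with a block for the replicate number and with a GC correction (0.036 to 0.073, adjusted p = 0.0611 to 0.209). MT-CO2 (ENSG00000198712, chrM:7586-8269) stood at 10817, 10263 and 10758 CPM with shNT, 10477, 10376 and 10252 with shLITATS1-1 and 6526, 6726 and 6561 with shLITATS1-2. It overlapped shNT with shLITATS1-1 (-0.034 ± 0.027 (SE; adjusted p = 0.277)) and lay below it with shLITATS1-2 (-0.68 ± 0.027 (SE; adjusted p = 1.63e-34)). With a correction for GC content the former value was -0.065 and passed the threshold (adjusted p = 0.00627). MT-CO3 (ENSG00000198938, chrM:9207-9990) was lower with both, at 9867, 9841 and 10231 CPM with shNT, 8590.3, 8379.5 and 8331 with shLITATS1-1 and 6894, 6523 and 6951 with shLITATS1-2. Its 3 groups did not overlap, and its log2 fold changes were -0.24 ± 0.027 (SE; adjusted p = 3.25e-12) and -0.56 ± 0.027 (SE; adjusted p = 7.24e-29).

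MT-ATP6 and MT-ATP8 encode membrane subunits of ATP synthase from overlapping reading frames of 1 messenger. MT-ATP6 (ENSG00000198899, chrM:8527-9207), subunit a of the proton channel, stood at 4671, 4916 and 4994 CPM with shNT, 3503, 3927 and 3732 with shLITATS1-1 and 2953, 3018 and 2956 with shLITATS1-2. The groups were apart in that order, with log2 fold changes of -0.39 ± 0.03 (SE; adjusted p = 4.86e-17) and -0.71 ± 0.03 (SE; adjusted p = 2.2e-28). MT-ATP8 (ENSG00000228253, chrM:8366-8572) is 207 bases long, and the last 46 of them also belong to MT-ATP6, so a fragment that covers them meets 2 genes. The gene sequence is shown because its counts rest on what lies outside that stretch; capitals mark the 46 shared bases, read from the GRCh38 reference with GENCODE 29 positions.
MT-ATP8: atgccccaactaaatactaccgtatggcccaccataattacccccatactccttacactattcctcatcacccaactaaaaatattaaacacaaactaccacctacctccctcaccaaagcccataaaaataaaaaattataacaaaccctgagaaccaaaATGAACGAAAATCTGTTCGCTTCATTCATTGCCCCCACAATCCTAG
The 161 bases in lower case belong to MT-ATP8 alone. Only 28 to 64 fragments per library were counted for it, which is 3.28, 2.86 and 2.31 CPM with shNT, 1.47, 1.95 and 2.53 with shLITATS1-1 and 2.36, 1.64 and 1.87 with shLITATS1-2. Both hairpin groups overlapped shNT. Its log2 fold changes were -0.51 ± 0.19 (SE; adjusted p = 0.02) and -0.52 ± 0.19 (SE; adjusted p = 0.0155), with a wider error than those of the other 12 messengers. The first call was lost without shNT replicate 1 (-0.38, adjusted p = 0.131) or shLITATS1-1 replicate 1 (-0.33, adjusted p = 0.174), and the second without shNT replicate 1 (-0.39, adjusted p = 0.117) or shLITATS1-2 replicate 2 (-0.41, adjusted p = 0.0942). Neither passed in DESeq2 (adjusted p = 0.0811 and 0.0689), nor did the second without TMM (-0.41, adjusted p = 0.0582). When any 1 library of the comparison was left out, 11 to 12 of the 13 genes were called lower with shLITATS1-2 and 7 to 9 with shLITATS1-1.

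**Figure D1:**
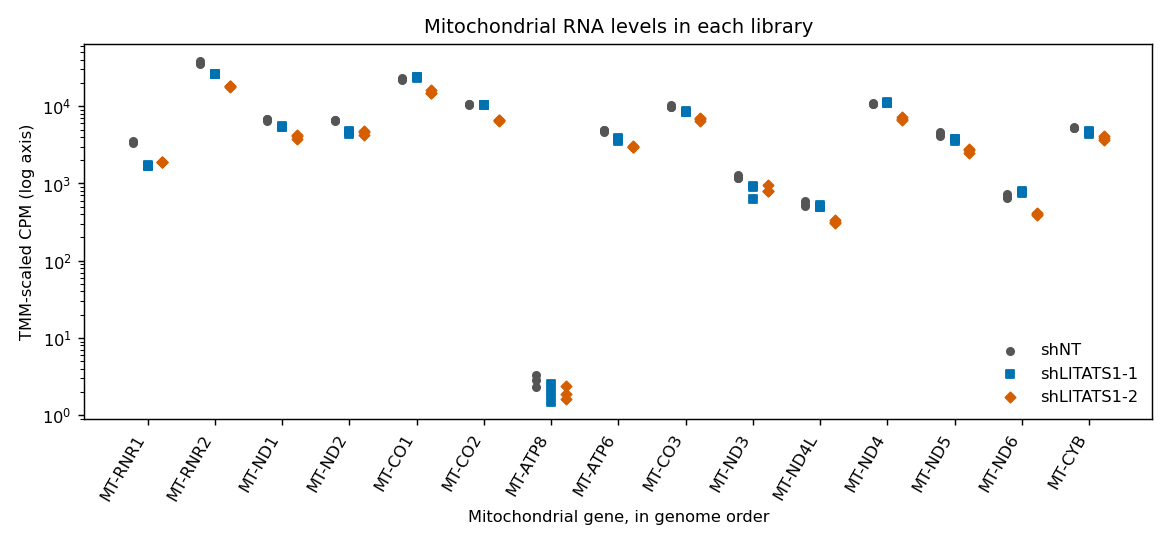
Level of the 13 mitochondrial messengers and 2 ribosomal RNAs in each library, in TMM-scaled CPM on a log axis, with genes in genome order; each point is 1 library. Apart from MT-ATP8, each shLITATS1-2 point lies below the shNT points of its gene, and the shLITATS1-1 points lie above shNT for MT-CO1, MT-ND4 and MT-ND6, overlap the shLITATS1-2 points for MT-ND2 and MT-ND3, and lie below them for MT-RNR1.

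**Figure D2:**
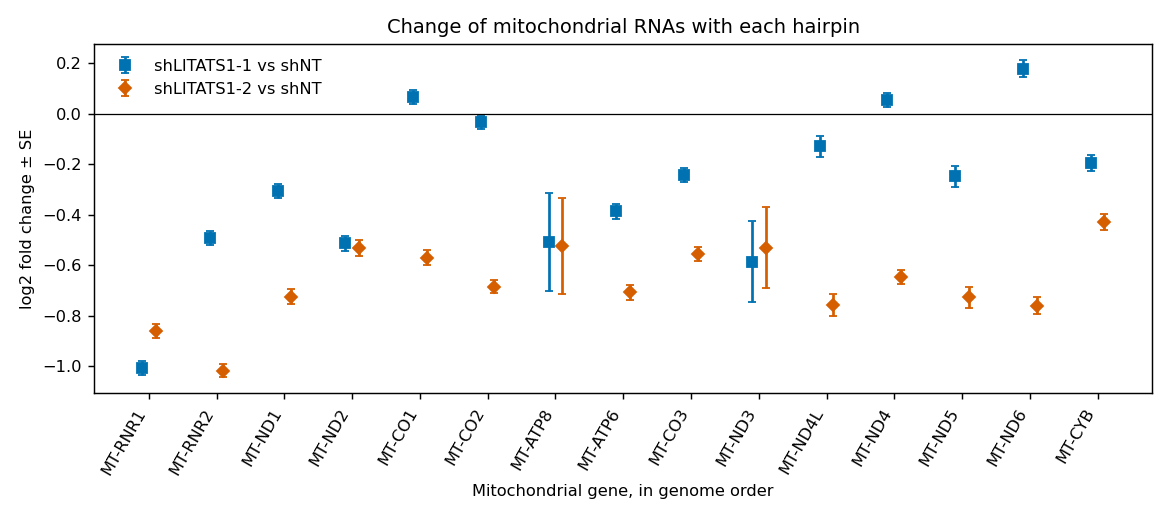
Log2 fold change (± SE) of the mitochondrial messengers and ribosomal RNAs against shNT for each hairpin, in genome order, from 3 libraries per group. The shLITATS1-2 values of the messengers lie between -0.43 and -0.76, while the shLITATS1-1 values reach from -0.59 for MT-ND3 to 0.18 for MT-ND6.

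Per kilobase of gene, the fragments counted for the mitochondrial genes differed widely. With shNT, MT-CO2 had 15516 ± 445 CPM per kilobase (SD, n = 3), MT-CO1 14671 ± 355 and MT-CO3 12729 ± 278. MT-CO2 and MT-CO1 lay close together at the top, and MT-CO3 was next. MT-ND4 followed at 7841 ± 98.5, with MT-ATP6 at 7137 ± 247 and MT-ND1 at 7017 ± 231 within their spread of each other. Among the lower ones MT-ND5 had 2411 ± 126, MT-ND4L 1839.5 ± 132 and MT-ND6 1302 ± 88.9 CPM per kilobase. The complex IV genes also headed this order with shLITATS1-2, where MT-CO1 and MT-CO2 stood at 9888 ± 536 and 9655 ± 156 CPM per kilobase. MT-ATP8, at 13.6 ± 2.34 with shNT, fell far outside this range. It lies on the same messenger as MT-ATP6, and MT-ND4L shares a transcript with MT-ND4. The gaps within these pairs are gaps in counted fragments, and they are not read as gaps in messenger level. How the counting of short or overlapping genes entered these values was not tested.

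The 13 messengers together took 8.32%, 8.20% and 8.19% of gene fragments with shNT, 7.42%, 7.64% and 7.49% with shLITATS1-1 and 5.67%, 5.79% and 6.06% with shLITATS1-2. The groups did not overlap in this share, which does not depend on scaling between libraries. Each difference had p = 0.1 in a two-sided exact permutation test, the smallest p that 3 libraries against 3 allow. Within this pool, the genes did not move in proportion with shLITATS1-1. In the shNT libraries MT-CO1 made up 26.9% ± 0.489 of the 13 (SD, n = 3), which became 30.4% ± 0.448 in the shLITATS1-1 and 27.6% ± 0.722 in the shLITATS1-2 libraries. MT-ND2 made up 7.74% ± 0.0812, 5.87% ± 0.126 and 8.16% ± 0.405 in the same order, and MT-ND4 12.8% ± 0.197, 14.4% ± 0.106 and 12.5% ± 0.201. The log2 changes of these shares spanned 0.77 between the extreme genes with shLITATS1-1, from MT-ND3 to MT-ND6, and 0.33 with shLITATS1-2, from MT-ND6 to MT-CYB. Of 39 exact permutation tests of a gene's share, 28 reached the smallest p of 0.1, and the smallest Benjamini-Hochberg adjusted p was 0.139. Since p cannot fall below 0.1 here, no share could pass a threshold of 0.05, whatever its change.

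The mitochondrial ribosomal RNAs, which are no subunits of the chain but serve its translation, were lower as well. MT-RNR1, the RNA of the small mitochondrial ribosomal subunit, stood at 3535, 3405 and 3327 CPM with shNT, 1679.6, 1734 and 1692 with shLITATS1-1 and 1874, 1872 and 1912 with shLITATS1-2. Its log2 fold changes were -1.01 ± 0.028 (SE; adjusted p = 6.27e-44) and -0.86 ± 0.027 (SE; adjusted p = 8.97e-40), each larger than that of any messenger with the same hairpin. MT-RNR2, the RNA of the large subunit, fell by 0.49 on the log2 scale with shLITATS1-1 and by 1.02 with shLITATS1-2 (adjusted p = 3.36e-26 and 3.71e-44). Fragments counted on annotated nuclear copies of mitochondrial genes summed to 9340 to 9920 per shNT library, 6114 to 7581 with shLITATS1-1 and 6434 to 6875 with shLITATS1-2. Most of them belonged to MTATP6P1, which was counted 4216 times in shLITATS1-1 replicate 1 and 5677 and 5729 times in the other libraries of that group. How such near-identical copies divided the fragments was not tested.

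The nuclear subunit genes moved in both directions and mostly little. Of the 42, 10 were called higher and 8 lower with shLITATS1-1, which is 42.9% called against 61.0% of all tested genes. With shLITATS1-2, 4 were called higher and 17 lower, which is 21 of 42 against 56.7%. Their median log2 fold changes were -0.0025 and -0.093. Only COX7C, UQCRFS1 and NDUFV2 were called with a change of 2-fold or more, and 34 of the 42 stayed within 0.35 on the log2 scale with both hairpins. The split with shLITATS1-2 changed where library size alone was used. Without TMM, 12 were called higher and 5 lower, and the medians rose to 0.020 for the 42 and 0.11 for all tested genes, so that the members stayed below the rest by 0.088. With DESeq2's size factors 4 were called higher and 17 lower. With mitochondrial genes left out of the scaling, 4 were called higher and 15 lower. The split with TMM also depended on 1 library, since 11 rather than 17 were called lower without shLITATS1-2 replicate 3. With shLITATS1-1, 6 rather than 10 were called higher without shNT replicate 2. Over both hairpins, COX7C was called higher with each, 6 genes were called lower with each (NDUFA8, NDUFB10, UQCRFS1, CYC1, ATP5F1A and ATP5MC1), NDUFS8 and UQCRB were called higher with shLITATS1-1 and lower with shLITATS1-2, and 12 were called with neither. The shares of all tested genes with these joint patterns were not counted, and both comparisons used the same controls. These joint counts are therefore not read as a result about the members.

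**Figure D3:**
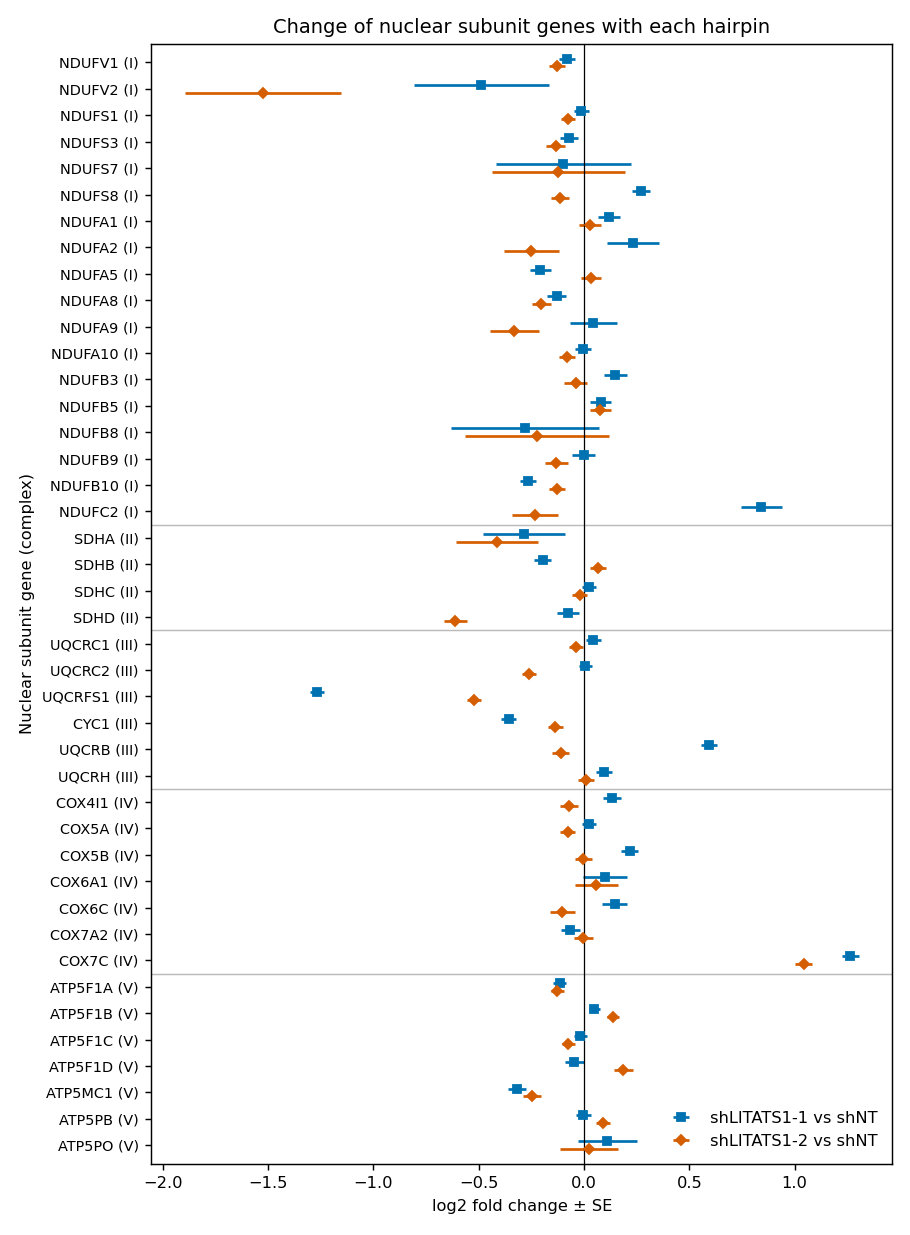
Log2 fold change (± SE) of the 42 nuclear subunit genes against shNT for each hairpin, grouped by complex, from 3 libraries per group. Most points lie near 0; COX7C stands out to the right with both hairpins and UQCRFS1 and the low-count NDUFV2 to the left, at -1.27 with shLITATS1-1 and -1.52 with shLITATS1-2.

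Among the 18 nuclear genes of complex I, 4 were called higher and 3 lower with shLITATS1-1, and 8 were called lower with shLITATS1-2. That is 38.9% and 44.4% called, against 61.0% and 56.7% of all tested genes. Without TMM, 3 were called higher and 1 lower with shLITATS1-2, so at most 1 of the 8 lower calls held under that scaling. Of the 6 genes of the matrix arm in the list, the arm that holds the flavin and the iron-sulfur clusters, NDUFS8 stood at 111, 124 and 125 CPM with shNT, 152, 140.0 and 143 with shLITATS1-1 and 119.7, 105 and 108 with shLITATS1-2. It was higher in all shLITATS1-1 libraries (0.27 ± 0.044 (SE; adjusted p = 2.27e-06)) and overlapped shNT with shLITATS1-2, where its small call (-0.11 ± 0.045 (SE; adjusted p = 0.0295)) was lost without shNT replicate 2 or 3 or shLITATS1-2 replicate 2 or 3 (-0.076 to -0.099, adjusted p = 0.0701 to 0.176), with DESeq2 (adjusted p = 0.0622), with a stricter filter (adjusted p = 0.0719) and without TMM (-0.0013, adjusted p = 0.982). NDUFV1, which binds NADH and flavin, and NDUFS3, near the quinone-facing end of the arm, had log2 fold changes of -0.13 and -0.13 with shLITATS1-2 (adjusted p = 0.00202 and 0.00697) and no call with shLITATS1-1. NDUFS1, the largest subunit, had -0.013 and -0.076 without a call. NDUFV2, an iron-sulfur subunit, was counted only 17, 17 and 18 times with shNT, 16, 12 and 8 times with shLITATS1-1 and 7, 6 and 6 times with shLITATS1-2. The shLITATS1-2 libraries lay below all others, and the log2 fold change was -1.52 ± 0.37 (SE; adjusted p = 0.000316). At these counts the size of that change is loosely set. The annotated pseudogene of NDUFV2 held 18 to 45 counts per library, more than the gene itself, so its level is uncertain.

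The accessory subunits of complex I, which surround the core, included the largest rise within complex I with shLITATS1-1. NDUFC2 stood at 6.50, 6.85 and 7.80 CPM with shNT, 12.97, 12.3 and 12.7 with shLITATS1-1 and 6.51, 6.40 and 5.09 with shLITATS1-2. The shLITATS1-1 libraries were apart from all others (0.84 ± 0.097 (SE; adjusted p = 1.01e-11)), and with shLITATS1-2 the value was -0.23 ± 0.11 (SE; adjusted p = 0.0686). That value passed the threshold without shNT replicate 1 (-0.28, adjusted p = 0.0465) or shLITATS1-2 replicate 1 (-0.30, adjusted p = 0.0408). NDUFC2 shares 431 exon bases with the readthrough gene NDUFC2-KCTD14, which was listed at 0. NDUFB10 stood at 119, 124 and 123 CPM with shNT, 104, 102 and 98.2 with shLITATS1-1 and 116, 112 and 107 with shLITATS1-2. The hairpin groups lay below shNT and apart from each other, with log2 fold changes of -0.27 ± 0.037 (SE; adjusted p = 4.44e-09) and -0.13 ± 0.037 (SE; adjusted p = 0.0021); without TMM the latter was -0.015 (adjusted p = 0.747). NDUFA5 stood at 59, 54.04 and 55.1 CPM with shNT, 45.7, 48.8 and 51.1 with shLITATS1-1 and 55.1, 55.4 and 61.4 with shLITATS1-2. It was lower with shLITATS1-1 (-0.21 ± 0.05 (SE; adjusted p = 0.000234)) and overlapped shNT with shLITATS1-2 (0.032 ± 0.048 (SE; adjusted p = 0.595)), where it was called higher without TMM (0.14, adjusted p = 0.00735) and with a GC correction (0.12, adjusted p = 0.00853).

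NDUFA9 and NDUFA2, accessory subunits with 87 to 201 counts per library, were lower with shLITATS1-2 than with shLITATS1-1. NDUFA9 had 7.98, 9.56 and 10.3 CPM with shNT, 9.93, 10.4 and 8.37 with shLITATS1-1 and 7.86, 8.61 and 5.66 with shLITATS1-2, and its call against shNT (-0.33 ± 0.12 (SE; adjusted p = 0.014)) was lost without shNT replicate 2 or 3 or shLITATS1-2 replicate 3 (-0.17 to -0.31, adjusted p = 0.0519 to 0.189) and without TMM (-0.22, adjusted p = 0.105). Between the hairpins NDUFA9 differed by -0.38 ± 0.12 (SE; adjusted p = 0.00506), a call lost without shLITATS1-2 replicate 3 (-0.22, adjusted p = 0.0883) and without TMM (-0.24, adjusted p = 0.0619). NDUFA2 had 5.63, 6.03 and 6.26 CPM with shNT, 7.98, 5.74 and 7.31 with shLITATS1-1 and 6.18, 4.71 and 4.18 with shLITATS1-2, without a call against shNT (0.23 ± 0.12 (SE; adjusted p = 0.101) and -0.25 ± 0.13 (SE; adjusted p = 0.0949)). Without shLITATS1-1 replicate 2 the first became 0.36 (adjusted p = 0.0156), and without shLITATS1-2 replicate 1 the second became -0.43 (adjusted p = 0.00835). Of the remaining accessory genes, NDUFA8 was called lower with both hairpins (-0.13 and -0.20), NDUFB9 with shLITATS1-2 (-0.13), and NDUFA1 and NDUFB3 were called higher with shLITATS1-1 (0.12 and 0.15). The calls of NDUFA8 and NDUFB9 with shLITATS1-2 are subject to the scaling limit given above for complex I. NDUFA10 and NDUFB5 stayed between -0.082 and 0.079 without a call, and NDUFB8 and NDUFS7, with 6 to 22 counts, gave no call, with standard errors of 0.32 to 0.35 on the log2 scale.

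Complex II, succinate dehydrogenase, also belongs to the citric acid cycle and is wholly nuclear. Of its 4 genes, 2 were called, each with 1 hairpin. That is 25% called with each hairpin, below the 61.0% and 56.7% of all tested genes. Without TMM, 2 were called higher and 1 lower with shLITATS1-2. SDHD (ENSG00000204370, chr11:112086773-112120013), a membrane anchor that helps bind quinone, stood at 46, 44.1 and 48.2 CPM with shNT, 44.1, 41.7 and 45.5 with shLITATS1-1 and 28.6, 30.2 and 31.7 with shLITATS1-2. The shLITATS1-2 libraries were below all others (-0.61 ± 0.054 (SE; adjusted p = 2.81e-16)), and the shLITATS1-1 libraries overlapped shNT (-0.076 ± 0.051 (SE; adjusted p = 0.196)). SDHB (ENSG00000117118, chr1:17018722-17054170), the iron-sulfur subunit, had the other pattern, at 90.2, 99.2 and 97.5 CPM with shNT, 83.3, 82.8 and 84.1 with shLITATS1-1 and 97.8, 101 and 101 with shLITATS1-2. It was below shNT with shLITATS1-1 (-0.20 ± 0.04 (SE; adjusted p = 1.47e-05)) and overlapped it with shLITATS1-2 (0.066 ± 0.038 (SE; adjusted p = 0.142)), a value that became 0.18 and passed the threshold without TMM (adjusted p = 4.8e-05). SDHC, the other anchor, had 0.023 and -0.021, and SDHA, the flavin subunit, was counted 29 to 51 times and had -0.29 and -0.41, all without a call. The annotated pseudogenes of SDHA held 415 to 554 counts per library, more than the gene itself, so its level is uncertain.

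The promoter windows of SDHD and SDHB are shown because these genes of 1 enzyme moved with different hairpins while both windows hold motifs of factors known for respiratory chain genes. The windows run from 250 bases before to 50 after the start in RefSeq (GRCh38.p14); that of SDHD is chr11:112086623-112086922 on the plus strand and that of SDHB chr1:17053983-17054282 on the minus strand, both written 5′ to 3′ with motif matches in capitals.
SDHD promoter: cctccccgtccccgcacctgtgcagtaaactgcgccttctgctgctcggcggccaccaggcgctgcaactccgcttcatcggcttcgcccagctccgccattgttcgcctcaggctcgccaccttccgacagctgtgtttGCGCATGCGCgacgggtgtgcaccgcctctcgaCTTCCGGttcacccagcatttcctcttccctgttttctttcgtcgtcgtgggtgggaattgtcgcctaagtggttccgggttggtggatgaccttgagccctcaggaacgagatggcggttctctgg
SDHB promoter: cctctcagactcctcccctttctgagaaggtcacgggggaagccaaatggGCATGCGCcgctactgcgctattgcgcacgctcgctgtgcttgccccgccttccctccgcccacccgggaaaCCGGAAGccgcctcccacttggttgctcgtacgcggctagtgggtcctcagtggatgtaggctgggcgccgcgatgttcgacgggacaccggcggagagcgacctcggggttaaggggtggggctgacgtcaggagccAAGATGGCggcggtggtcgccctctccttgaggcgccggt
The motifs searched, on both strands, were GCATGCGC for NRF1, CCGGAAG for ETS factors such as GABP (NRF2) and AAGATGGC for YY1. The SDHD window held overlapping NRF1 matches on both strands and an ETS match, and the SDHB window held 1 match of each motif. A match describes the letters only and is not evidence of binding.

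Complex III held the largest decrease among members above 300 counts. UQCRFS1 (ENSG00000169021, chr19:29205321-29213541), the Rieske iron-sulfur protein that takes electrons from quinol, stood at 345, 362 and 358 CPM with shNT, 153, 141 and 148 with shLITATS1-1 and 261, 247 and 235 with shLITATS1-2. The 3 groups were wide apart, at 41.5% ± 1.59 and 69.7% ± 3.66 of the shNT mean (SD, n = 3) with the hairpins. Its log2 fold changes were -1.27 ± 0.034 (SE; adjusted p = 5.87e-43) and -0.52 ± 0.033 (SE; adjusted p = 9.07e-23). Annotated pseudogenes of UQCRFS1 held 20 to 67 counts per library. Its promoter window (chr19:29213102-29213401, minus strand) is shown as that of the member with the largest decrease above 300 counts, and it has no capitals since none of the 3 motifs is in it.
UQCRFS1 promoter: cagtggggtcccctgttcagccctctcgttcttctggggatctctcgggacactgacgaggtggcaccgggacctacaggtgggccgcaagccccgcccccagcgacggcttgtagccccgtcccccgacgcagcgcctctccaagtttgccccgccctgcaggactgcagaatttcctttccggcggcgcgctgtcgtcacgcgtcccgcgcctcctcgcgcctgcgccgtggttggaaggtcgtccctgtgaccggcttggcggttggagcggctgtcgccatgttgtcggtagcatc

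CYC1 encodes cytochrome c1, which receives the electron from the Rieske protein. It stood at 228, 256 and 248 CPM with shNT, 196, 184 and 191 with shLITATS1-1 and 230.5, 216 and 219 with shLITATS1-2, lower in all shLITATS1-1 libraries (-0.36 ± 0.035 (SE; adjusted p = 8.32e-14)) and overlapping shNT with shLITATS1-2 (-0.14 ± 0.034 (SE; adjusted p = 0.000545)). Without TMM the latter was -0.024 (adjusted p = 0.577). UQCRB, which binds quinone at the matrix side, went the other way with shLITATS1-1. It stood at 93.5, 82.5 and 87.7 CPM with shNT, 131, 132 and 135 with shLITATS1-1 and 85.4, 79.3 and 79.5 with shLITATS1-2. The rise with shLITATS1-1 was clear of the spread (0.59 ± 0.039 (SE; adjusted p = 3.83e-22)). With shLITATS1-2 it overlapped shNT, and the call (-0.11 ± 0.041 (SE; adjusted p = 0.0164)) was lost without shNT replicate 1 (-0.058, adjusted p = 0.249), shLITATS1-2 replicate 2 (-0.094, adjusted p = 0.0858) or shLITATS1-2 replicate 3 (-0.096, adjusted p = 0.0646) and was -0.045 with a GC correction (adjusted p = 0.295) and 0.0014 without TMM (adjusted p = 0.980). UQCRC2, a core protein, was lower with shLITATS1-2 alone among the tests against shNT, at 234, 233 and 245 CPM with shNT, 233, 239 and 242 with shLITATS1-1 and 200.4, 196 and 197 with shLITATS1-2 (0.0051 ± 0.031 (SE; adjusted p = 0.9) and -0.26 ± 0.031 (SE; adjusted p = 4.45e-11)). Its partner UQCRC1 had 0.045 and -0.04 without a call, and the hinge protein gene UQCRH was called slightly higher with shLITATS1-1 (0.10, adjusted p = 0.0199).

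Of the 7 nuclear genes of complex IV, 4 were called higher and 0 lower with shLITATS1-1, against 30.5% of tested genes called higher. COX7C (ENSG00000127184, chr5:86617904-86620962), a small membrane subunit, led this group, at 68.8, 67.1 and 77.2 CPM with shNT, 176, 167 and 169 with shLITATS1-1 and 153, 145 and 141 with shLITATS1-2. Both hairpin groups lay above shNT in each library, at 240.2% ± 6.56 and 206% ± 8.43 of its mean (SD, n = 3). The log2 fold changes were 1.26 ± 0.04 (SE; adjusted p = 1.57e-37) and 1.04 ± 0.04 (SE; adjusted p = 9.87e-33). Its pseudogenes held at most 3 counts per library. The promoter window (chr5:86617691-86617990, plus strand) is shown as that of the member with the largest increase; none of the 3 motifs is in it.
COX7C promoter: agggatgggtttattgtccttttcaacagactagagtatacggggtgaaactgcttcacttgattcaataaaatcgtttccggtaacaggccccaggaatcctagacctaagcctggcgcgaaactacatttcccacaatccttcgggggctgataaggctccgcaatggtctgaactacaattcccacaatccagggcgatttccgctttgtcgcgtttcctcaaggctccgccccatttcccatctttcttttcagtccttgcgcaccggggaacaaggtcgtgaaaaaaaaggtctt

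COX5B, which lies on the matrix side of complex IV, stood at 82.9, 90.2 and 90.4 CPM with shNT, 109, 98.99 and 98.9 with shLITATS1-1 and 86.99, 89.2 and 86.7 with shLITATS1-2. It was above shNT with shLITATS1-1 (0.22 ± 0.04 (SE; adjusted p = 3.23e-06)) and within its range with shLITATS1-2 (-0.0039 ± 0.041 (SE; adjusted p = 0.944)); without TMM the latter turned to 0.11 (adjusted p = 0.0178). COX4I1, a subunit through which ATP is known to slow the enzyme, and COX6C were called higher with shLITATS1-1 (0.13 and 0.15, adjusted p = 0.0105 and 0.0278). COX5A was called lower with shLITATS1-2 (-0.078, adjusted p = 0.0448), but without TMM no nuclear complex IV gene was. COX6A1 and COX7A2 had values between -0.066 and 0.099 without a call. The pseudogenes of COX7A2 held 0 counts in all libraries.

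The nuclear genes of ATP synthase had log2 fold changes between -0.32 and 0.19, with 2 lower with shLITATS1-1, and 3 higher and 3 lower with shLITATS1-2. These are 28.6% and 85.7% of 7 genes, beside 61.0% and 56.7% of all tested genes. Without TMM the shLITATS1-2 split became 3 higher and 1 lower. ATP5MC1, which encodes the c subunit of the rotating ring, stood at 135, 142 and 147 CPM with shNT, 117, 116 and 107 with shLITATS1-1 and 127, 120.3 and 109 with shLITATS1-2. Both hairpin groups lay below shNT, with log2 fold changes of -0.32 ± 0.042 (SE; adjusted p = 1.43e-08) and -0.25 ± 0.042 (SE; adjusted p = 2.31e-06). ATP5F1A, the alpha subunit of the catalytic head, was called lower with both (-0.12 and -0.13). ATP5F1B, the catalytic beta subunit, went up with shLITATS1-2, at 909, 949 and 964 CPM with shNT, 987, 969 and 966 with shLITATS1-1 and 1037, 1041 and 1028 with shLITATS1-2. The shLITATS1-2 libraries were above all others (0.14 ± 0.028 (SE; adjusted p = 1.62e-05)). The shLITATS1-1 libraries lay slightly above shNT without a call, at 0.049 ± 0.028 (SE; adjusted p = 0.121), which passed the threshold at 0.084 with a gene length correction (adjusted p = 0.00231). ATP5F1D, the delta subunit of the central stalk, stood at 61.6, 67.9 and 67.8 CPM with shNT, 65.6, 63.9 and 61.7 with shLITATS1-1 and 80.6, 73.8 and 70.1 with shLITATS1-2. It was higher with shLITATS1-2 (0.19 ± 0.045 (SE; adjusted p = 0.000329)) and not called with shLITATS1-1 (-0.045 ± 0.047 (SE; adjusted p = 0.411)), where a GC correction turned it to 0.11 (adjusted p = 0.0163). ATP5PB, subunit b of the peripheral stalk, stood at 141, 141 and 145 CPM with shNT, 143, 145 and 137 with shLITATS1-1 and 149, 152 and 153 with shLITATS1-2, and its small rise with shLITATS1-2 (0.091 ± 0.034 (SE; adjusted p = 0.019)) was lost without shNT replicate 2 or shLITATS1-2 replicate 2 or 3 (0.080 to 0.086, adjusted p = 0.0605 to 0.0735) or without a filter (0.087, adjusted p = 0.0539). ATP5F1C, the gamma subunit of the central stalk, was called lower with shLITATS1-2 (-0.076), and ATP5PO, with 71 to 91 counts, passed no test.

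**Figure D4:**
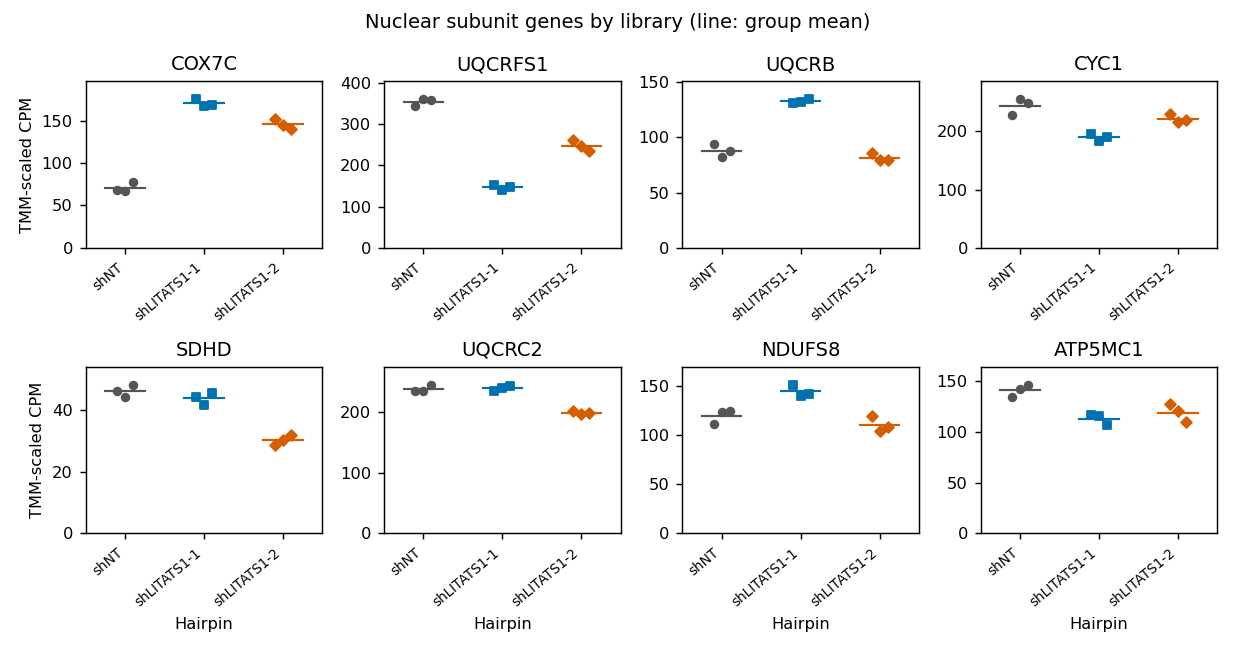
TMM-scaled CPM of 8 nuclear subunit genes in each library, with a line at each group mean and axes from 0. COX7C is above shNT and UQCRFS1 below it in all 6 hairpin libraries, UQCRB and NDUFS8 are raised in the shLITATS1-1 libraries, and SDHD and UQCRC2 are lowered in the shLITATS1-2 libraries.

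Set side by side, the mitochondrial and nuclear sums of complexes I, IV and V differed in how far or which way they moved. Those of complex III were both lower with both hairpins. The 7 mitochondrial complex I messengers summed to 87.5% of their shNT level with shLITATS1-1 and 63.8% with shLITATS1-2, while the 18 nuclear ones summed to 99.9% and 93.9%. In complex III, MT-CYB stood at 87.3% and 74.2%, and the 6 nuclear genes summed to 83.1% and 85.0%. With shLITATS1-1 this nuclear sum fell from 1200 to 997 CPM, and UQCRFS1 fell from 355 to 147. The other nuclear genes of complex III therefore did not fall as a sum with shLITATS1-1. With shLITATS1-2 the sum was 1021 CPM and UQCRFS1 stood at 247, so the others were lower as a sum. In complex IV, the 3 mitochondrial messengers summed to 98.3% and 66.3%, and the 7 nuclear genes to 120% and 108%. This nuclear sum was 694 CPM with shNT, 833 with shLITATS1-1 and 747 with shLITATS1-2. COX7C had 71.0, 171 and 146 CPM of it. The other nuclear genes of complex IV were thus higher as a sum with shLITATS1-1 and lower with shLITATS1-2. Sums without UQCRFS1 or COX7C were not tested. In complex V, the 2 mitochondrial messengers summed to 76.6% and 61.2%, and the 7 nuclear genes to 98.5% and 102%. Complex II, with no mitochondrial gene, summed to 95.5% and 95.0%. Each mitochondrial sum lay below shNT in all libraries of both hairpins, with p = 0.1 in exact permutation tests, the smallest possible. In the same exact permutation tests of the nuclear sums, those of complexes II and III reached p = 0.1 with both hairpins, that of complex I with shLITATS1-2 and that of complex IV with shLITATS1-1. The sums use TMM-scaled CPM, and how far they depend on that scaling was not tested. As a share of gene fragments, which uses no scaling, the 42 nuclear genes made up 0.4998% ± 0.0142 with shNT (SD, n = 3), against 0.483% ± 0.00749 in the shLITATS1-1 libraries and 0.524% ± 0.00997 in the shLITATS1-2 libraries. The hairpin shares were 96.7% and 104.8% of the shNT share (p = 0.2 and 0.1 in exact permutation tests). With shLITATS1-2 the unscaled share was thus above shNT, whereas the TMM-scaled sums of complexes I, II and III were below it. The gene fragments in that share include all mitochondrial RNA, which made up 12.2% with shNT, 10.2% with shLITATS1-1 and 7.97% with shLITATS1-2. A smaller mitochondrial part raises the share of all other genes, so the nuclear share is not independent of it.

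Low counts and annotation limited some nuclear members. Of the 42, 9 had fewer than 300 counts in every library (NDUFV2, NDUFS7, NDUFA2, NDUFA9, NDUFB8, NDUFC2, SDHA, COX6A1 and ATP5PO), and the other 33 had 559 to 21642. In GENCODE 29, 16 of the 42 share 10% or more of their exon bases with another gene on either strand, and 19 share none. All of the 9 members with low counts except SDHA are among these 16. Fragments set aside as ambiguous made up 10.2% to 10.9% of each library. Whether the overlaps lowered the counts of these members was not tested. The counts of overlapping genes are uncertain, because no source used here states a strand setting for the counting.

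Compared directly, the hairpins differed in 60.9% of all tested genes (30.7% higher and 30.2% lower with shLITATS1-2 than with shLITATS1-1), in 76.9% of the mitochondrial messengers and in 59.5% of the nuclear members, which is near the share over all genes. Of the 13 mitochondrial messengers, 10 were lower with shLITATS1-2 and 3 (MT-ND2, MT-ND3 and MT-ATP8) were not called, with a median difference of -0.42 on the log2 scale. The largest difference was that of MT-ND6 (-0.94 ± 0.035 (SE; adjusted p = 4.22e-24)), followed by MT-ND4 (-0.70 ± 0.028 (SE; adjusted p = 8.58e-34)), MT-CO2 (-0.65 ± 0.027 (SE; adjusted p = 2.27e-33)) and MT-CO1 (-0.64 ± 0.029 (SE; adjusted p = 1.16e-28)). MT-CYB differed by -0.23 ± 0.032 (SE; adjusted p = 2.73e-08), the smallest of the called differences. MT-ND2, which stood level between the hairpins (-0.02 ± 0.031 (SE; adjusted p = 0.605)), turned to 0.11 without TMM (adjusted p = 0.00168). Of the 42 nuclear genes, 8 were higher and 17 lower with shLITATS1-2, with a median of -0.076, while without TMM 15 were higher and 9 lower with a median of 0.056, below the all-gene median of 0.15. Without shLITATS1-2 replicate 3, 11 rather than 17 were lower. UQCRFS1 was higher with shLITATS1-2 (0.75 ± 0.035 (SE; adjusted p = 1.14e-29)), as were SDHB (0.26 ± 0.039 (SE; adjusted p = 2.2e-08)), NDUFA5 (0.24 ± 0.049 (SE; adjusted p = 2.28e-05)), ATP5F1D (0.23 ± 0.046 (SE; adjusted p = 1.16e-05)) and CYC1 (0.22 ± 0.035 (SE; adjusted p = 1.52e-07)). NDUFC2 was lower (-1.07 ± 0.099 (SE; adjusted p = 2.21e-15)), as were UQCRB (-0.70 ± 0.039 (SE; adjusted p = 6.05e-26)), SDHD (-0.54 ± 0.054 (SE; adjusted p = 9.42e-14)) and NDUFA2 (-0.48 ± 0.13 (SE; adjusted p = 0.000765)). The difference in NDUFV2 (-1.04 ± 0.4 (SE; adjusted p = 0.0226)) was lost without shLITATS1-1 replicate 1 or shLITATS1-2 replicate 2 or 3 (-0.78 to -0.997, adjusted p = 0.0578 to 0.158), with DESeq2 (adjusted p = 0.0701) and without a filter (adjusted p = 0.0518), and that in ATP5F1D with a GC correction (0.056, adjusted p = 0.207).

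Other genes of the pathway were counted in lists made for this system, with results of these data known. Of 38 further subunit genes tested, 8 were higher and 10 lower with shLITATS1-1 and 1 higher and 9 lower with shLITATS1-2, with median log2 fold changes of 0.017 and -0.033. The called shares, 47.4% and 26.3%, lay below the 61.0% and 56.7% of all tested genes. Without TMM the shLITATS1-2 split became 9 higher and 4 lower. ATP5MF, a membrane subunit of ATP synthase, had 0.11 ± 0.072 (SE; adjusted p = 0.197) with shLITATS1-1 and -0.60 ± 0.078 (SE; adjusted p = 3.35e-10) with shLITATS1-2. ATP5MG, another one, was higher with shLITATS1-1 (0.40 ± 0.082 (SE; adjusted p = 1.76e-05)) and lower with shLITATS1-2 (-0.38 ± 0.089 (SE; adjusted p = 0.000218)). NDUFAB1, the acyl carrier protein bound to complex I, was lower with both (-0.35 and -0.16), and NDUFA3, an accessory subunit of complex I, with shLITATS1-1 (-0.35; -0.093 without a call with shLITATS1-2).

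Genes that express and assemble the mitochondrially encoded subunits were more often called lower than higher, while all tested genes split evenly with shLITATS1-1 (30.5% higher and 30.5% lower) and nearly so with shLITATS1-2 (27.8% and 28.9%). Of 31 factors of mitochondrial DNA and RNA, 18 were lower and 3 higher with shLITATS1-1, and 22 were lower and 0 higher with shLITATS1-2, with medians of -0.20 and -0.24. FASTKD2, an RNA-binding protein of mitochondrial RNA granules, was lower with both (-0.29 ± 0.042 (SE; adjusted p = 1.47e-08) and -0.66 ± 0.043 (SE; adjusted p = 2.5e-22)), as were TFB2M, a transcription factor needed to start mitochondrial transcription (-0.65 and -0.29), and MTPAP, the mitochondrial poly(A) polymerase (-0.54 and -0.47). GRSF1, which binds G-rich mitochondrial RNA, had 0.068 ± 0.035 (SE; adjusted p = 0.0897) with shLITATS1-1 and was lower with shLITATS1-2 (-0.63 ± 0.037 (SE; adjusted p = 6.15e-25)). Of 75 mitochondrial ribosomal protein genes, 50 were lower and 2 higher with shLITATS1-1 and 38 lower and 5 higher with shLITATS1-2 (medians -0.19 and -0.13). MRPL42 was lower with shLITATS1-1 (-0.90 ± 0.048 (SE; adjusted p = 4.65e-27); 0.065 without a call with shLITATS1-2), MRPL49 and MRPL18 with both (-0.60 and -0.15; -0.17 and -0.53), and MRPS6 was higher with shLITATS1-2 (0.56 ± 0.074 (SE; adjusted p = 7.46e-10); -0.13 without a call with shLITATS1-1). Of 48 assembly factors, 25 were lower and 6 higher with shLITATS1-1 and 23 lower and 2 higher with shLITATS1-2 (medians -0.14 and -0.13). TTC19, a complex III assembly factor, was higher with shLITATS1-1 (0.15 ± 0.042 (SE; adjusted p = 0.0019)) and lower with shLITATS1-2 (-0.92 ± 0.046 (SE; adjusted p = 1.59e-28)). NDUFAF3, for complex I, was lower with both (-0.87 and -0.42), COX16, for complex IV, was higher with shLITATS1-1 (0.65), and COX20, for the same complex, was lower with it (-0.99 ± 0.44 (SE; adjusted p = 0.0482)) at under 1 CPM. Without TMM the shLITATS1-2 split narrowed to 16 lower and 1 higher for the DNA and RNA factors, 16 and 15 for the ribosomal proteins and 9 and 8 for the assembly factors, while the medians stayed 0.23, 0.13 and 0.13 below that of all genes under that scaling.

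Among 11 regulators of mitochondrial biogenesis, changes ran in both directions, 2 higher and 5 lower with shLITATS1-1 and 3 higher and 5 lower with shLITATS1-2, or 63.6% and 72.7% called beside 61.0% and 56.7% of all tested genes. Without TMM the latter split became 4 higher and 2 lower. PPARA, a nuclear receptor for fatty acid oxidation, was higher with both (1.43 ± 0.1 (SE; adjusted p = 9.13e-21) and 1.06 ± 0.1 (SE; adjusted p = 3.63e-14)), and SIRT1, an NAD-dependent deacetylase, was lower with both (-0.63 ± 0.049 (SE; adjusted p = 1.23e-18) and -1.35 ± 0.053 (SE; adjusted p = 1.38e-34)). PPARGC1A, the coactivator PGC-1α, stood at 4.35, 4.14 and 5.18 CPM with shNT, 4.25, 5.84 and 4.84 with shLITATS1-1 and 2.22, 2.21 and 1.73 with shLITATS1-2, with all shLITATS1-2 libraries below the rest (-1.15 ± 0.16 (SE; adjusted p = 5.8e-09); 0.13 ± 0.14 (SE; adjusted p = 0.434) with shLITATS1-1). ESRRA, a nuclear receptor that acts with PGC-1α, was higher with shLITATS1-2 (0.51 ± 0.053 (SE; adjusted p = 5.28e-13); -0.092 without a call with shLITATS1-1). Of 18 genes of the citric acid cycle and its entry, 12 were lower and 2 higher with shLITATS1-1 and 8 lower and 4 higher with shLITATS1-2, and without TMM the latter split became 3 lower and 9 higher. These are 77.8% and 66.7% called, against the same 61.0% and 56.7%. PDHB, a subunit of pyruvate dehydrogenase, was lower with shLITATS1-1 (-0.50; 0.057 without a call with shLITATS1-2), SUCLA2 and SUCLG2, of succinyl-CoA ligase, with both (-0.26 and -0.46; -0.39 and -0.20), and PC, pyruvate carboxylase, was lower with shLITATS1-1 and higher with shLITATS1-2 (-0.29 and 0.43). Of 19 genes of protein import, chaperones and the outer membrane, 12 were lower and 2 higher with shLITATS1-1 and 9 lower and 2 higher with shLITATS1-2, and without TMM the latter split became 6 lower and 8 higher. These are 73.7% and 57.9% called, the latter near the 56.7% of all tested genes. HSPD1 and HSPE1, the mitochondrial chaperonin pair, were lower with both (-0.34 and -0.49; -0.38 and -0.57), as was VDAC3, a porin (-0.47 and -0.34). TOMM40, the import pore, was lower with shLITATS1-1 (-0.57), and its value with shLITATS1-2 (-0.086, adjusted p = 0.0143) turned to 0.027 without TMM (adjusted p = 0.463). Of the other genes named from the lists, NDUFAB1, MRPL49 and SUCLG2 lost their calls with shLITATS1-2 without TMM (-0.052, -0.035 and -0.083, adjusted p = 0.303, 0.509 and 0.0595), while MRPL42 and PDHB were then called higher with it (0.18 and 0.17, adjusted p = 0.000271 and 0.00181).

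**Figure D5:**
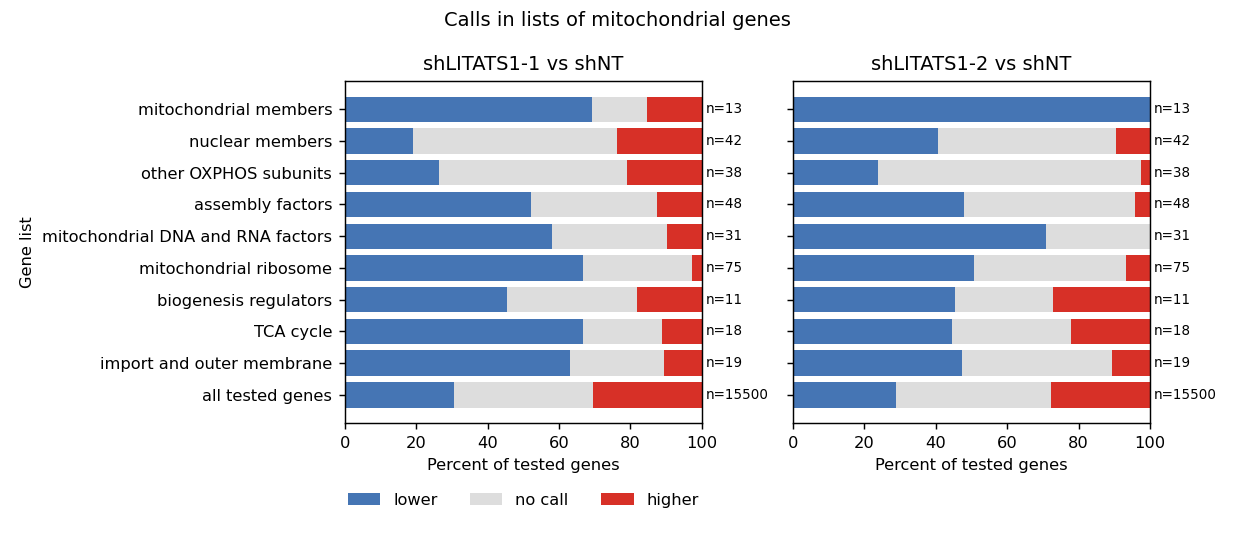
Percent of tested genes called lower (blue), called higher (red) or not called (grey) against shNT in each list, with the number of tested genes (n), for shLITATS1-1 on the left and shLITATS1-2 on the right. The mitochondrial members are called lower throughout with shLITATS1-2, whereas the nuclear members split between both directions; the bottom bar gives all 15500 tested genes.

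Motif letters in the promoters of the nuclear members were counted as a feature that the choice of genes did not use. Of the 42, 33 matched a RefSeq promoter window, and for genes with several windows any of them counted. Of the 33, 19 held at least 1 of the 3 motifs and 14 held none. The NRF1 motif was in 8 of the 33 (24.2%), against 3.68% of 27305 genes with a window, the ETS motif in 10 (30.3% against 12.2%) and the YY1 motif in 7 (21.2% against 3.52%). The 27305 genes were not limited to those expressed here, whereas all 33 members were. The shares among tested genes alone were not counted, so the excess is not read as particular to the members. SDHB alone among the members held all 3, and COX5B, COX6A1 and SDHD held NRF1 and ETS matches. Members with matches were found among genes called in either direction and among those not called: SDHD was lower with shLITATS1-2, COX5B was higher with shLITATS1-1, and COX6A1 was called with neither. COX7C and UQCRFS1, the members above 300 counts with the largest changes, held none of the 3 in their windows.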

How the data were processed

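The authors deposited 1 table of unnormalized counts of fragments per gene for the 9 libraries. Per the submitters' processing notes it was made with FastQC, cutadapt 2.10, STAR 2.7.5a and HTSeq 0.12.4 on GRCh38; the annotation release and strand setting are not given in the sources used. The sample titles gave each library's group and replicate number. The 5 counter lines that name no gene, 19.0% to 20.3% of all fragments, entered neither library sizes nor tests. Totals were 24556848 to 24671296 fragments per library.

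Genes were kept by filterByExpr in edgeR 4.0.16 (R 4.3.3) with a minimum count of 10, scaled by TMM (mean factors 0.978 with shNT, 0.966 with shLITATS1-1 and 1.06 with shLITATS1-2), and tested, two-sided, by the robust quasi-likelihood test in 1 fit of all 9 libraries with 6 residual degrees of freedom and Benjamini-Hochberg adjustment over all tested genes. The common biological coefficient of variation was 2.71%. Shares and sums were compared by two-sided exact permutation tests of 3 libraries against 3. The procedure was checked on counts simulated with a common spread and few changed genes. Far more genes were called in these data, so that check does not cover the scaling under so many changes. The alternatives were DESeq2 1.42.0, its size factors in edgeR, library size alone, scaling without mitochondrial genes, no filter, a filter of 50 counts, offsets for gene length and GC content, a block for the replicate number, fits of 6 libraries, a threshold of 0.01 and the omission of each library. Counting the lists, and testing their named genes, under other scalings was decided after seeing the data. Pseudogenes of members were found by symbol and GENCODE 29 gene type.

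The members and lists were chosen with earlier results of these data known. All mitochondrial members are named. Nuclear members have their values in each library where they were among the 5 highest or 5 lowest called log2 fold changes with either hairpin or between hairpins, and each list has up to 4 called genes named. Gene positions came from GENCODE 29 on GRCh38, matched by identifier, and promoter windows from RefSeq (GRCh38.p14).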

Additional observations from a re-analysis of the deposited data

Results flagged for a closer look

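Of the named genes, 7 were called in opposite directions with the hairpins and were also called between them. Both were conditions for entry here, so the call between the hairpins adds no separate support. The share of all tested genes that meet both conditions was not counted. All values are log2 differences of shLITATS1-2 against shLITATS1-1 from edgeR, and both hairpins were set against the same controls. Among the mitochondrial genes these were MT-ND6 (-0.94, adjusted p = 4.22e-24) and MT-CO1 (-0.64, adjusted p = 1.16e-28), whose rise with shLITATS1-1 depended on single libraries. Among the nuclear members they were UQCRB (-0.70, adjusted p = 6.05e-26) and NDUFS8 (-0.38, adjusted p = 2.35e-09), whose falls with shLITATS1-2 depended on single libraries and on the scaling. Among the other pathway genes they were TTC19 (-1.07, adjusted p = 1.7e-32) and ATP5MG (-0.78, adjusted p = 1.31e-12), both higher with shLITATS1-1, and PC (0.72, adjusted p = 2.87e-19), higher with shLITATS1-2. No outlier test applied, since each group held 3 libraries.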

How the results depend on the processing

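Mitochondrial messengers called higher with shLITATS1-1 numbered 1 rather than 2 with DESeq2, library-size scaling, no filter, the GC offset, the replicate block and a threshold of 0.01, and 1 to 2 when 1 library was left out. Nuclear members called higher with shLITATS1-1 numbered 5 at the 0.01 threshold and 6 to 11 when 1 library was left out. With shLITATS1-2, library-size scaling gave 12 higher and 5 lower nuclear members, the 0.01 threshold gave 11 lower, and leaving out 1 library gave 11 to 20 lower. Between the hairpins, library-size scaling gave 1 mitochondrial and 15 nuclear members higher and 9 nuclear members lower, and leaving out 1 library gave 11 to 19 lower.

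The difference in the share of the 13 messengers was -0.720 percentage points with shLITATS1-1, -2.40 with shLITATS1-2 and -1.68 between them. It was -1.96, -4.21 and -2.25 with ribosomal and transfer RNA genes included, and -2.01 with shLITATS1-2 and -1.34 between the hairpins over all fragments. The span of share changes between the hairpins was 0.996, and 0.762 without MT-ND6 in the total and 0.898 to 1.16 when 1 library was left out. Library-size scaling turned MT-ND2 between the hairpins to 0.11, COX5B with shLITATS1-2 to 0.11 and UQCRB with shLITATS1-2 to 0.0014, and the GC offset turned ATP5F1D with shLITATS1-1 to 0.11. Library-size scaling drops the composition correction; otherwise the cause was not tested. Of 97 comparisons of a named gene, 67 kept their call and direction under every alternative run.

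The replicate numbers share nothing beyond the number: same-numbered libraries correlated by -0.061 to 0.036 in their deviations from the group means in 9 pairs, and 1 library correlated best with its own number. The replicate block moved no other count of calls by over 1.5 times; with the gene length offset, MT-ND5 with shLITATS1-1 was -0.21 (adjusted p = 0.0625). Low counts limit the 9 nuclear members below 300 counts and MT-ATP8.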
